A study of Mus musculus with 48 samples.

Results

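Srebf1, Insig2, Mlxipl, Mlx, Thrsp and Mid1ip1 are 6 genes whose products switch on, restrain or assist the enzymes of fatty acid synthesis in the liver. Their mRNA was followed in livers of mice with or without hepatocyte p110α, the catalytic subunit of the phosphoinositide 3-kinase PI3Kα, on 2 diets, in the fed and the fasted state. The genes were chosen by name: every probe of the array that was not a control and carried 1 of the 6 gene names was used. This gave 12 probes, all of which passed the filter on dim probes, and 6 genes of the 20487 that were tested.

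The liver samples came from 48 male mice in 8 groups of 6. The p110α hep-/- mice (LKO in the labels) carried p110α flox/flox and albumin-Cre, used to delete the floxed part of the gene in hepatocytes. Whether the gene stayed intact in the other cells of the liver was not tested here. Littermates with the floxed gene and no Cre, p110α hep+/+ (LWT in the labels), were the controls. Every mouse thus carried the floxed allele and only the p110α hep-/- mice carried Cre. From 12 weeks of age the mice ate a control diet (CTRL, D12450J) or a high fat diet (HFD, D12492) with 60% of calories from fat, for 12 weeks. They were then either fed ad libitum or fasted for 24 h, and all were killed at ZT16, in the dark phase. Each mouse gave 1 array. Levels are normalised log2 signals, on which 1 unit is a doubling, and a gene is described by its brightest probe unless another is named. Changes are limma log2 fold changes from a fit over all 48 arrays in which noisier arrays weigh less, so they differ slightly from the difference of the plain means. A gene is called changed at a Benjamini-Hochberg adjusted p of at most 0.05 over all probes tested.

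Srebf1 encodes SREBP-1, the membrane-bound factor that insulin induces and that, once cut free in the Golgi, turns on the genes of fatty acid synthesis. Insig2 encodes an endoplasmic reticulum protein that holds SREBP and its escort SCAP back from that cut. Mlxipl encodes ChREBP, a factor activated by glucose metabolites that binds DNA together with the protein encoded by Mlx and drives glycolytic and lipogenic genes. Thrsp (Spot 14) and Mid1ip1 (MIG12) encode related small proteins found where fat is made, and MIG12 promotes the assembly of acetyl-CoA carboxylase, which makes the malonyl-CoA used by fatty acid synthase. In liver, both lipogenic factors act in the fed state, and SREBP-1 and Thrsp mRNA are known to fall on fasting, whereas Insig2 has a liver transcript that insulin lowers.

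The probes sit at these places of the mouse genome (build mm9, from the array design). The Srebf1 probe lies at chr11:60013214-60013273 on the minus strand, and the Mid1ip1 probe at chrX:10296703-10296762 on the plus strand. The brightest Mlxipl probe is at chr5:135613705-135613764 on the plus strand, with further probes at chr5:135598483-135599113 and chr5:135614195-135614252. The Mlx probes are at chr11:100952426-100952485 (brightest) and chr11:100952890-100952949 on the plus strand. The Thrsp probes are at chr7:104561649-104561708 (brightest) and chr7:104565562-104565621 on the minus strand. The Insig2 probes are at chr1:123201085-123201144 (brightest), chr1:123201071-123201130 and chr1:123203517-123203752 on the minus strand. The second of these overlaps the brightest one, so they are not separate readings of the gene. The last spans 236 bases for a probe of 60, so it crosses a splice junction. Gene parts such as exons or UTRs were not annotated here. The second Thrsp probe and the Insig2 probe that crosses a junction are shown because they read a different part of the mRNA than the brightest probe, as is the stretch of the second Mlxipl probe that occurs on other probes, with the 20 shared bases in capitals.
Thrsp, second probe: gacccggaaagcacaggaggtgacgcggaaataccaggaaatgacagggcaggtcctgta
Insig2, junction probe: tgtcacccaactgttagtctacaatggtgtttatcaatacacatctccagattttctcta
Mlxipl, second probe, bases 28 to 57: ctctaCTACACAGAGAAACCCTGTCtcaaa
The 20 bases in capitals occur on 6 probes of other genes, and 9 probes of other genes share some run of 20 bases with that Mlxipl probe on either strand. None of the other 11 probes shares such a run. What this adds to the signal of the second Mlxipl probe was not tested.

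The promoters of the 6 genes are shown because factors of the same pathways are known to act on lipogenic genes through motifs of this kind. RefSeq (GRCm38.p6) gave 11 start sites, 3 each for Srebf1 and Insig2, 2 for Mlxipl and 1 for each of the others. The 250 bases before each start were searched on both strands for the E-box CACGTG, which factors such as USF can bind, for the sterol regulatory element TCACNCCAC, for the CCAAT box CCAAT, for the GC box GGGCGG and for the FOXO site GTAAACA. The direct repeat bound by LXR and thyroid hormone receptors, known as DR4, was searched in the same way. Below are the 120 bases before 1 start of each gene, with matches to these motifs in capitals, where ATTGG is CCAAT read on the other strand.
Srebf1, start 3, chr11:60210472-60210591, minus strand: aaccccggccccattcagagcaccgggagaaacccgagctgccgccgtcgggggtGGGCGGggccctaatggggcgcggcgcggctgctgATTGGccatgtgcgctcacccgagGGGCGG
Insig2, start 1, chr1:121332590-121332709, minus strand: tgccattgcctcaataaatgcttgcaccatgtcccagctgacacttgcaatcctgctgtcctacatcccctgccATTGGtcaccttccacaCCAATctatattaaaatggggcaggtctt
Mlxipl, start 1, chr5:135089770-135089889, plus strand: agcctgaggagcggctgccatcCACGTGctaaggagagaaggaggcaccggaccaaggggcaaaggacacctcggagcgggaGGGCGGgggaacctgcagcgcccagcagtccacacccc
Mlx, chr11:101087170-101087289, plus strand: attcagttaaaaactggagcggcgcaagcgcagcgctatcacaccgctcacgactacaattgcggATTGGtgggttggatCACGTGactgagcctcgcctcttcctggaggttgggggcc
Thrsp, chr7:97417551-97417670, minus strand: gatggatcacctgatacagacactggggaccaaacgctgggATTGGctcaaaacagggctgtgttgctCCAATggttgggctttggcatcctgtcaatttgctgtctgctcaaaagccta
Mid1ip1, chrX:10717245-10717364, plus strand: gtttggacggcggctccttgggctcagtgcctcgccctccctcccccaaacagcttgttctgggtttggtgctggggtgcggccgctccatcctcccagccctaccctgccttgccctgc
The E-box was found before 2 of the 11 starts, 1 of Mlxipl and the start of Mlx, against 6.02% of 32851 mouse start sites. The sterol regulatory element was found before 1, the second Mlxipl start, against 1.05%. CCAAT was found before 6 starts (33.85% of all) and the GC box before 6 (32.74%), while the FOXO site (3.17%) and the direct repeat (0.02%) were found before none. These matches are descriptions of letters in a window and say nothing of binding in these livers.

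The arrays were alike in quality. Between 50.1% and 57.4% of the probes were well above background, no spot was saturated, and arrays of the same group correlated with r of 0.989 to 0.997 over all probes kept. The 12 probes of the 6 genes were well above background on every array. The single Pik3ca probe was not lower in p110α hep-/- liver, changed by 0.08 to 0.58 in the 4 states, and was called higher in 3 of them (adjusted p = 0.000403, 2.74e-07 and 0.0172), so it gave no check of the deletion. All 6 hepatocyte markers were measured, and their summed level, which the brightest of them set, lay between 20.28 and 20.41 in all 48 livers. Quantile normalization gives the brightest probes nearly the same values on every array, so this sum could not show a difference in hepatocyte content. Among the 6 markers Cps1, a urea cycle enzyme, was higher in p110α hep-/- mice in all 4 states (0.53 to 1.35). Ttr, transthyretin, was lower in 3 of the states (-0.25 to -0.18). Of the 6 adipocyte markers, 5 passed the filter, with Plin1 and Retn at 5.49 to 5.89 in the group means, close to background, and Adipoq below the filter. The sum of these 5 ran from 10.37 to 16.15 in p110α hep+/+ livers and from 9.37 to 11.43 in p110α hep-/- livers. The widest ranges of group means were those of Cfd (5.81 to 13.83) and Cidea (5.29 to 14.39), which set the upper end of the sum. Whether the sum reflects fat cells was not tested. Of the 5 adipocyte markers measured, 2 were lower in p110α hep-/- mice in each of the 4 states. In fed CTRL, fasted CTRL, fed HFD and fasted HFD mice 1, 0, 1 and 1 were higher. Cidea had the largest fall in each state, with its lowest group mean close to background. Adrb3 went the other way, higher in p110α hep-/- mice on HFD by 0.85 in fed and 1.21 in fasted mice and in fed mice on CTRL by 0.71. Of 5 endothelial markers 1, 3, 1 and 5 were higher in p110α hep-/- mice (fed CTRL, fasted CTRL, fed HFD, fasted HFD) and none was lower, with a median of 0.41 in fasted mice on HFD. Of 4 cholangiocyte markers 2, 3, 3 and 3 were lower and none was higher, with Krt19 at -0.89 in fed mice on HFD. Krt7 (5.44 to 6.09 in the group means) and Epcam (5.26 to 5.82) lay close to background. The lowest group mean of Krt19, at 5.57, did so too. Of 5 stellate and fibroblast markers 1, 2, 2 and 2 were lower and 1, 0, 1 and 1 higher, with Col1a1 at -1.78 and -2.33 on HFD. Of 6 Kupffer cell and macrophage markers 0, 1, 0 and 1 were higher and 0, 0, 0 and 1 lower. Of 5 pancreatic acinar markers 2 were measured, of which 1, 1, 0 and 1 were lower and none was higher. Over all genes, 10.7%, 12.3%, 16.4% and 17.7% were lower and 11%, 12.5%, 16.6% and 19.2% higher in p110α hep-/- mice in these states. The part of these cell type markers in the genotype differences given next was not tested. In whole liver, fewer cells of a type and less RNA per cell cannot be told apart.

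More tests of the 6 genes passed between nutritional states than between genotypes or diets, although Insig2 passed in more settings between genotypes (3 of 4) than on fasting (1 of 4) and Mlxipl in more between diets (3 of 4) than on fasting (2 of 4). Of the 6, 5 fell on fasting in p110α hep+/+ mice on CTRL and none rose, 4 fell and none rose in p110α hep+/+ mice on HFD, 5 fell and 1 rose in p110α hep-/- mice on CTRL, and 4 fell and none rose in p110α hep-/- mice on HFD. Over all genes, the share called lower on fasting was 16.6%, 14.8%, 19.2% and 14.7% in the same order, and the share called higher was 16%, 13.8%, 16.4% and 14%. The median change of the 6 genes was -1.66, -0.87, -1.71 and -1.01, against medians over all genes of at most 0.01 in size. Markers of other cells moved with fasting as well. In the same order, 3, 1, 2 and 3 of 5 stellate and fibroblast markers, 2, 1, 2 and 0 of 4 cholangiocyte markers, 1, 3, 0 and 0 of 5 endothelial markers, 0, 1, 0 and 0 of 6 Kupffer cell and macrophage markers and 0, 0, 1 and 1 of 2 pancreatic acinar markers were lower in fasted mice, and none of these was higher. Of 5 adipocyte markers 1, 1, 1 and 0 were higher and none was lower. Of 6 hepatocyte markers 1, 3, 2 and 2 were higher and 1, 0, 1 and 0 lower, with Hnf4a at 0.64 in p110α hep-/- mice on HFD. The part of all these markers in the changes on fasting was not tested.

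Deletion of p110α lowered several of them. On CTRL, 4 of the 6 were lower in fed p110α hep-/- mice (10.7% of all genes lower, 11% higher) and 2 in fasted ones (12.3% lower, 12.5% higher). On HFD, 3 were lower in fed p110α hep-/- mice (16.4% lower, 16.6% higher), and in fasted ones 3 were lower and 1 was higher (17.7% lower, 19.2% higher). The median change of the 6 was -0.71, -0.39, -0.60 and -0.27, against 0.02, 0.01, 0.03 and 0.03 for all genes.

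More of the 6 genes were lowered than raised by HFD in fed mice. Only 1 was raised in each setting, the smallest count above 0. In fed p110α hep+/+ mice 1 gene was higher and 3 were lower on HFD (12.4% and 11.6% of all genes), and in fasted ones 1 was higher and none was lower (8.99% and 7.06%). In fed p110α hep-/- mice 1 was higher and 2 were lower (5.91% and 6.43%), and in fasted ones 1 was higher and none was lower (5.67% and 5.17%). In all, 19 of 24 tests between nutritional states, 13 of 24 between genotypes and 9 of 24 between diets passed the threshold, and 15, 10 and 5 of them also exceeded a 1.5-fold change. The share of all genes that also exceeded this fold was not counted, so these last counts have no background. Comparisons that share a group, such as the genotype and the diet effect in fed mice, are not independent of each other. Of the 5 stellate and fibroblast markers 3 were higher on HFD in fed and 3 in fasted p110α hep+/+ mice, with Col1a1 at 1.28 and 1.83, and none was called in p110α hep-/- mice. Of the 5 adipocyte markers 2 and 2 were higher in fed and fasted p110α hep+/+ mice, with Cidea at 2.96 in fasted ones, and 1 and 1 in p110α hep-/- mice, Cfd at 3.24 and 2.97, and Adrb3 was lower in fasted p110α hep+/+ mice (-0.51). In the same order 1, 0, 1 and 1 of the 5 endothelial markers were higher and 0, 2, 1 and 0 lower, 0, 1, 0 and 0 of the 6 Kupffer cell and macrophage markers were higher, 1, 1, 0 and 0 of the 2 pancreatic acinar markers were lower, and none of the 4 cholangiocyte markers was called. Of 6 hepatocyte markers 0, 1, 0 and 1 were higher and 1, 1, 0 and 0 lower, with Cps1 at -0.82 in fed p110α hep+/+ mice. The part of all these markers in the changes on HFD was not tested.

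**Figure D1:**
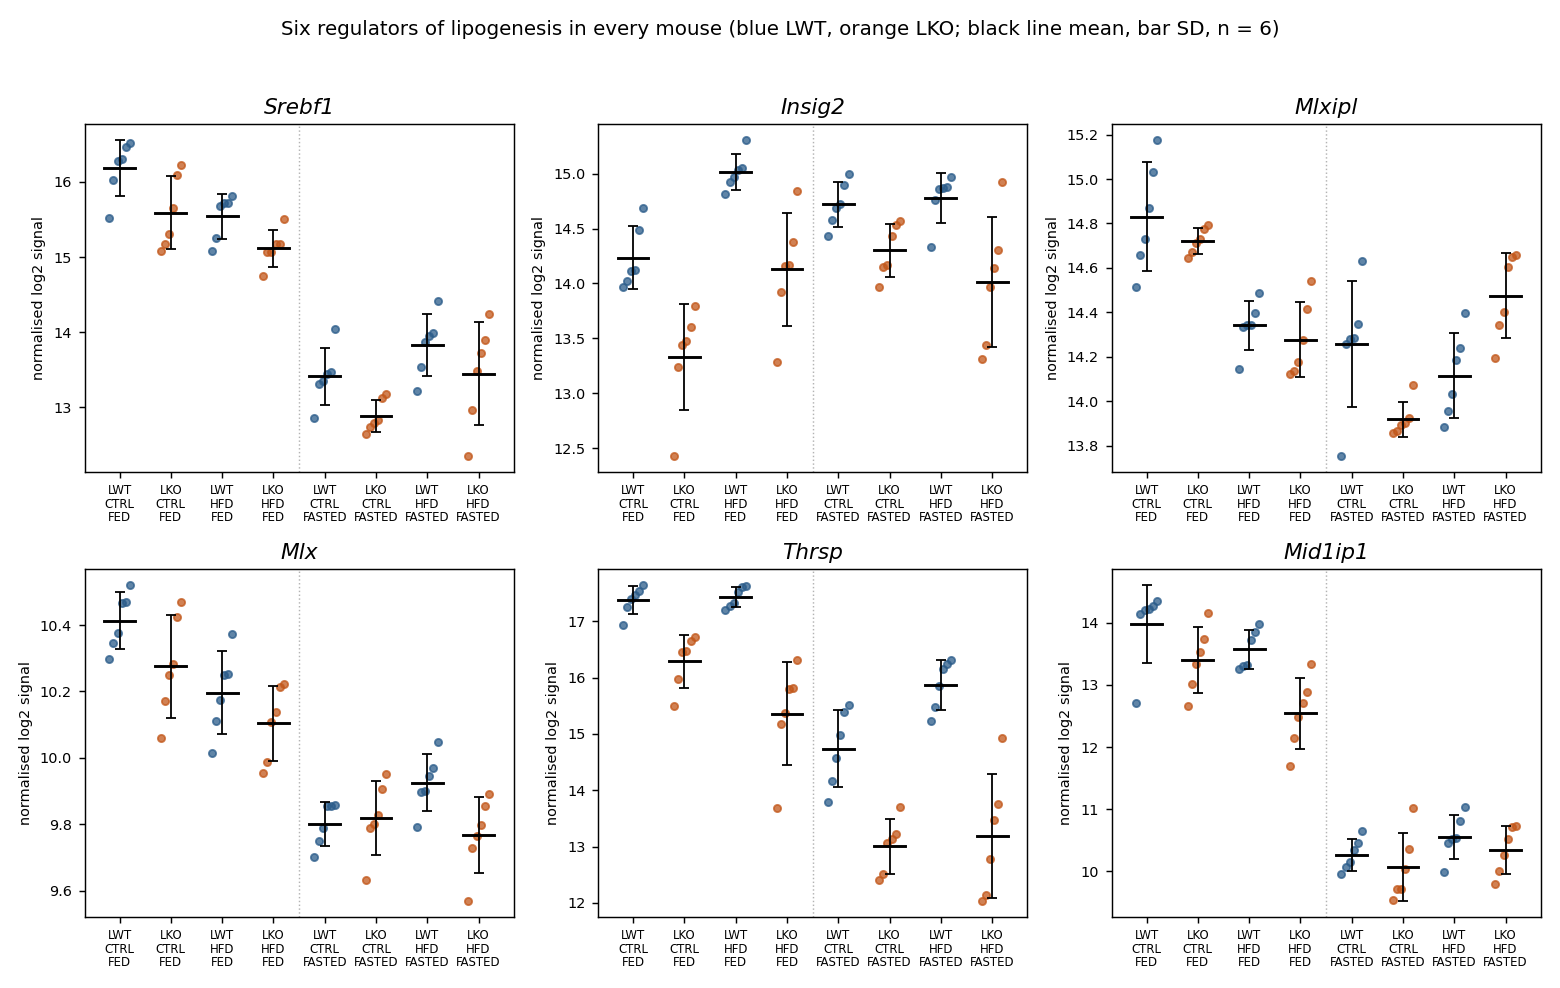
Normalised log2 signal of the brightest probe of each gene (vertical axis) in each of the 48 mice, by group (horizontal axis), with p110α hep+/+ in blue and p110α hep-/- in orange, and the group mean and SD (n = 6) in black. Srebf1, Thrsp and Mid1ip1 differ most between fed and fasted groups, and the group means of Mlx span the least, a range of 1.57-fold.

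Srebf1, the SREBP-1 gene, was higher in every fed liver than in every fasted liver of the same genotype and diet. In p110α hep+/+ mice on CTRL it ran from 15.52 to 16.52 in the fed state (median 16.29) and from 12.86 to 14.04 in the fasted state (median 13.40). On HFD it ran from 15.08 to 15.82 (median 15.70) in fed and from 13.22 to 14.42 (median 13.91) in fasted p110α hep+/+ mice. The groups did not overlap on either diet, and fasting lowered Srebf1 7.13-fold on CTRL (log2 change -2.83 ± 0.20, SE; limma, adjusted p = 9.69e-15) and 3.27-fold on HFD (-1.71 ± 0.20, adjusted p = 4.81e-09). In p110α hep-/- mice on CTRL it ran from 15.08 to 16.23 fed (median 15.48) and from 12.64 to 13.18 fasted (median 12.81). On HFD it ran from 14.74 to 15.51 fed (median 15.12) and from 12.35 to 14.24 fasted (median 13.61). The fall without p110α was thus 6.09-fold on CTRL (-2.61 ± 0.21, adjusted p = 1.74e-13) and 3.15-fold on HFD (-1.66 ± 0.23, adjusted p = 3.84e-07). The test of the difference between the genotypes' falls gave 0.23 ± 0.29 on CTRL (adjusted p = 0.734) and 0.05 ± 0.30 on HFD (adjusted p = 0.959).

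The fall of Srebf1 was smaller on HFD than on CTRL. The difference was 1.12 ± 0.28 in p110α hep+/+ mice (adjusted p = 0.0232) and 0.95 ± 0.31 in p110α hep-/- mice (adjusted p = 0.0469). Within the 2 washing batches of the arrays it was 0.55 and 1.59 in p110α hep+/+ mice and 0.70 and 1.35 in p110α hep-/- mice. The call in p110α hep+/+ mice was lost without array weights (adjusted p = 0.104), without the filter on dim probes (0.0924) and without the sixth fasted mouse on CTRL (1.01, adjusted p = 0.0559), and that in p110α hep-/- mice was lost when any of 25 arrays was left out (adjusted p 0.05 to 0.138) and under 4 alternative settings (adjusted p 0.0511 to 0.0838). In the fed state HFD lowered Srebf1 in p110α hep+/+ mice (-0.65 ± 0.20, adjusted p = 0.0139), with batch values of -0.30 and -1.01. In fasted mice the difference had the other sign, 0.47 ± 0.20 (adjusted p = 0.108) in p110α hep+/+ and 0.57 ± 0.21 (adjusted p = 0.0833) in p110α hep-/- mice, and did not pass. The former passed when 1 array was left out (0.58, adjusted p = 0.0468). The latter passed with slide as a fixed block (adjusted p = 0.0441), with the replicate block (0.0161) and without either of 2 arrays (0.00829 to 0.0331).

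Deletion of p110α lowered Srebf1 1.63-fold in fed mice on CTRL (-0.70 ± 0.21; limma, adjusted p = 0.0127), although the ranges of the groups overlapped. This call was lost without array weights (-0.60, adjusted p = 0.0673), without the filter on dim probes (-0.66, adjusted p = 0.0518) and without replicate 3 or replicate 6 of the fed p110α hep-/- mice on CTRL (-0.60, adjusted p = 0.0652, and -0.59, adjusted p = 0.0558). In the other 3 states the difference was smaller and did not pass, with -0.47 ± 0.20 in fasted mice on CTRL (adjusted p = 0.0809), -0.43 ± 0.21 in fed mice on HFD (adjusted p = 0.116) and -0.37 ± 0.21 in fasted mice on HFD (adjusted p = 0.18). Each of these passed under some alternative: the first and the second in fits of the 2 groups alone (adjusted p = 0.0374 and 0.0389), and the last without replicate 1 of the fasted p110α hep-/- mice on HFD (-0.57, adjusted p = 0.04). In both washing batches the difference was below 0 in all 4 states, from -0.70 to -0.09. The 8 group means spanned 9.84-fold, from fed p110α hep+/+ mice on CTRL (16.19 ± 0.37, SD, n = 6) to fasted p110α hep-/- mice on CTRL (12.89 ± 0.22). Between fed p110α hep-/- mice on CTRL (15.59 ± 0.48) and fed p110α hep+/+ mice on HFD (15.54 ± 0.30) the means lay closer than their spread, as the mean of fasted p110α hep-/- mice on HFD did to the next above, fasted p110α hep+/+ mice on HFD, and the next below, fasted p110α hep+/+ mice on CTRL.

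**Figure D2:**
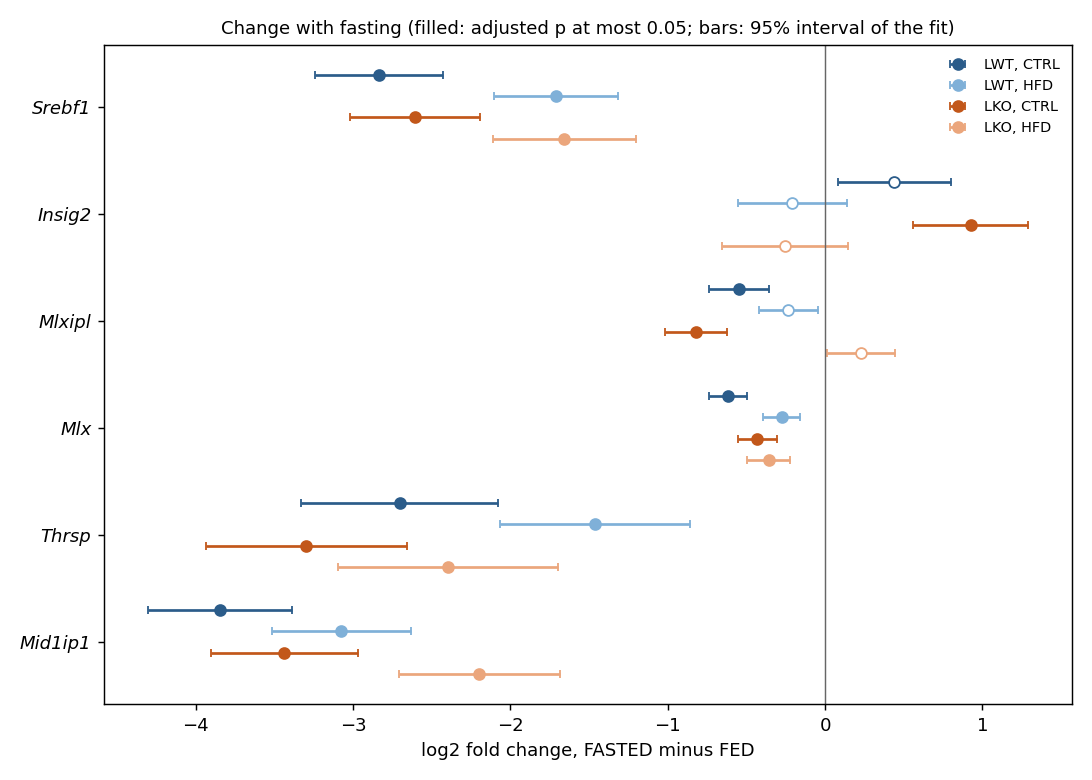
Fasted minus fed log2 fold change (horizontal axis) of each gene (vertical axis) with its 95% confidence interval, by genotype and diet, filled where the adjusted p was at most 0.05. Srebf1, Thrsp and Mid1ip1 lie from -3.85 to -1.46 in all 4 settings, while Insig2 lies above 0 on CTRL (0.44 and 0.93) and below 0 on HFD (-0.21 and -0.26).

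Insig2, which encodes the retention protein of the SREBP pathway, moved unlike Srebf1. In fed p110α hep+/+ mice it ran from 13.97 to 14.69 on CTRL (median 14.12) and from 14.82 to 15.30 on HFD (median 15.002). In fed p110α hep-/- mice it ran from 12.43 to 13.80 on CTRL (median 13.46) and from 13.29 to 14.84 on HFD (median 14.17). Fed mice thus had more Insig2 mRNA on HFD in both genotypes, by 0.73 ± 0.17 in p110α hep+/+ (1.66-fold, adjusted p = 0.00196), where the groups did not overlap, and by 0.84 ± 0.19 in p110α hep-/- (1.79-fold, adjusted p = 0.00215), where they did. In the 2 washing batches the rise was 1.07 and 0.51 in p110α hep+/+ and 0.96 and 0.63 in p110α hep-/- mice.

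In fasted p110α hep+/+ mice Insig2 ran from 14.43 to 14.996 on CTRL (median 14.71) and from 14.33 to 14.97 on HFD (median 14.86). In fasted p110α hep-/- mice it ran from 13.96 to 14.56 on CTRL (median 14.30) and from 13.31 to 14.93 on HFD (median 14.06). No effect of HFD passed in the fasted state (0.08 ± 0.18, adjusted p = 0.812, and -0.34 ± 0.19, adjusted p = 0.276). On CTRL, Insig2 rose on fasting in p110α hep-/- mice by 0.93 ± 0.18, which is 1.90-fold (adjusted p = 7.63e-05), with every fasted liver above every fed liver, and 0.66 and 1.29 within batches. In p110α hep+/+ mice on CTRL the change was 0.44 ± 0.18 (adjusted p = 0.0547), which passed under 6 of 13 alternative settings, and the second Insig2 probe, which overlaps the brightest, called it (0.51 ± 0.18, adjusted p = 0.0293), while the junction probe did not (0.28 ± 0.20, adjusted p = 0.315). The difference between the genotypes' rises did not pass (0.49 ± 0.25, adjusted p = 0.305). On HFD the change on fasting was -0.21 ± 0.17 in p110α hep+/+ (adjusted p = 0.403) and -0.26 ± 0.20 in p110α hep-/- mice (adjusted p = 0.377). The effect of fasting therefore differed between diets in p110α hep-/- mice, by -1.18 ± 0.27 (adjusted p = 0.00328; -0.91 and -1.25 within batches), while in p110α hep+/+ mice the difference was -0.65 ± 0.25 (adjusted p = 0.168; 0.0396 in a fit of those groups alone).

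Deletion of p110α lowered Insig2 in 3 of the 4 states. The difference was -0.89 ± 0.18 in fed mice on CTRL, which is 1.86-fold (adjusted p = 0.00035), and there every p110α hep-/- liver lay below every p110α hep+/+ liver. It was -0.78 ± 0.18 in fed mice on HFD (1.72-fold, adjusted p = 0.000948) and -0.83 ± 0.19 in fasted mice on HFD (1.77-fold, adjusted p = 6e-04), with overlap. In fasted mice on CTRL it was -0.41 ± 0.18 (adjusted p = 0.0892), which passed in a fit of those 2 groups alone (adjusted p = 0.0266). Within the washing batches all 8 values were below 0, from -1.16 to -0.34. The other Insig2 probes, including the junction probe shown above, called the same 3 states and not fasted mice on CTRL. Its 8 group means spanned 3.22-fold, from fed p110α hep-/- mice on CTRL (13.33 ± 0.48, SD, n = 6) to fed p110α hep+/+ mice on HFD (15.02 ± 0.16). The 4 means from fasted p110α hep-/- mice on CTRL (14.30 ± 0.24) to fasted p110α hep-/- mice on HFD (14.02 ± 0.59) lay, each against the next, closer than their spread.

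**Figure D3:**
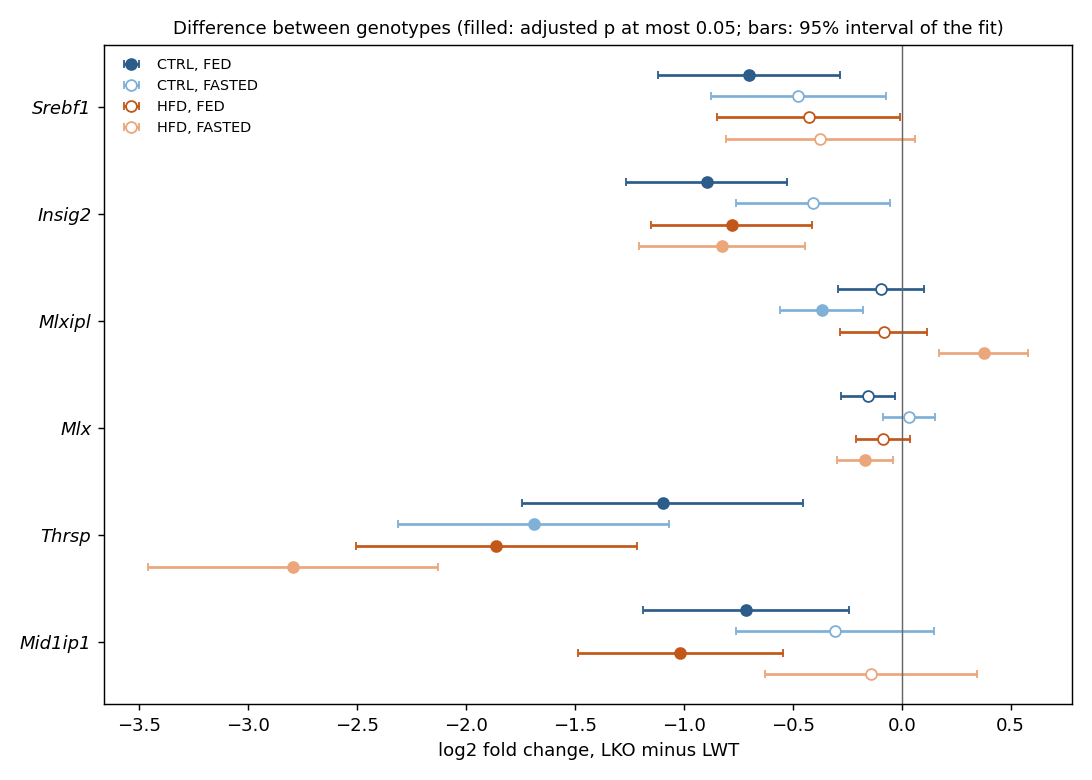
Log2 fold change of p110α hep-/- minus p110α hep+/+ mice (horizontal axis) of each gene (vertical axis) with its 95% confidence interval, in the 4 combinations of diet and nutritional state, filled where the adjusted p was at most 0.05. Thrsp lies from -2.79 to -1.097, and Mlxipl lies at -0.37 in fasted mice on CTRL and at 0.38 in fasted mice on HFD.

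Mlxipl, the ChREBP gene, changed less than Srebf1 and in directions that depended on diet. In p110α hep+/+ mice on CTRL it ran from 14.51 to 15.17 fed (median 14.80) and from 13.75 to 14.63 fasted (median 14.28). On HFD it ran from 14.15 to 14.49 fed (median 14.34) and from 13.88 to 14.40 fasted (median 14.11). Fasting thus lowered Mlxipl in p110α hep+/+ mice 1.46-fold on CTRL (-0.55 ± 0.10, adjusted p = 1.71e-05), with overlap, and the change on HFD was -0.23 ± 0.09 (adjusted p = 0.0555). The change on HFD passed with only probes above background on all arrays (adjusted p = 0.0422) and without any of 7 arrays (adjusted p 0.0227 to 0.0484). In p110α hep-/- mice on CTRL Mlxipl ran from 14.64 to 14.79 fed (median 14.72) and from 13.86 to 14.07 fasted (median 13.90). On HFD it ran from 14.12 to 14.54 fed (median 14.22) and from 14.19 to 14.66 fasted (median 14.50). Without p110α Mlxipl therefore fell 1.76-fold on fasting on CTRL (-0.82 ± 0.10, adjusted p = 6.52e-09), with no overlap, while on HFD the value was 0.23 ± 0.11 (adjusted p = 0.113), which passed with median scaling (0.30, adjusted p = 0.0408) and with the processed signal (0.32, adjusted p = 0.0207). The difference between these 2 responses was 1.05 ± 0.14 (adjusted p = 2.26e-06), with 0.87 and 1.16 within the washing batches, and in p110α hep+/+ mice it was 0.31 ± 0.13 (adjusted p = 0.225).

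HFD lowered Mlxipl in fed mice of both genotypes, with -0.50 ± 0.09 in p110α hep+/+ (1.41-fold, adjusted p = 0.000109) and -0.48 ± 0.10 in p110α hep-/- mice (1.40-fold, adjusted p = 0.000989), with no overlap in either. In fasted p110α hep-/- mice it was higher on HFD by 0.56 ± 0.10 (1.48-fold, adjusted p = 0.000176), again with no overlap, and in fasted p110α hep+/+ mice the difference was -0.18 ± 0.09 (adjusted p = 0.197), which passed with the processed signal scaled to the 75th percentile (-0.28, adjusted p = 0.0254). A genotype difference passed in the fasted state, with opposite sign on the 2 diets. Fasted p110α hep-/- mice had less Mlxipl mRNA on CTRL (-0.37 ± 0.09, adjusted p = 0.00353; -0.35 and -0.33 within batches) and more on HFD (0.38 ± 0.10, adjusted p = 0.00315; 0.17 and 0.57 within batches). The test of this change of sign gave 0.74 ± 0.14 (adjusted p = 0.0013). In fed mice the genotype difference was -0.10 ± 0.10 on CTRL (adjusted p = 0.538) and -0.08 ± 0.10 on HFD (adjusted p = 0.559), and the tests of fed against fasted genotype differences gave -0.27 ± 0.14 on CTRL (adjusted p = 0.285) and 0.46 ± 0.14 on HFD (adjusted p = 0.0603). The latter passed under 4 alternative settings, among them slide as a fixed block (0.42, adjusted p = 0.0431), and without any of 7 arrays (adjusted p 0.0301 to 0.0482). The 8 group means spanned 1.88-fold, from fed p110α hep+/+ mice on CTRL (14.83 ± 0.24, SD, n = 6) to fasted p110α hep-/- mice on CTRL (13.92 ± 0.08).

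The 3 Mlxipl probes did not read the same pattern. The second probe, part of which occurs on other probes, called the same 2 genotype differences (-0.48 ± 0.13 and 0.54 ± 0.14 in fasted mice on CTRL and HFD) and the same 2 interactions (1.01 ± 0.20 and 1.14 ± 0.20). The third probe, at chr5:135614195-135614252, was higher in p110α hep-/- mice in all 4 states, by 0.20 to 0.28 (adjusted p 0.00106 to 0.0186), rose on fasting on HFD in both genotypes by 0.22, and called no interaction. With the median over the 3 probes the genotype difference in fasted mice on CTRL was -0.23 (adjusted p = 0.183) and the effect of HFD in fasted p110α hep-/- mice was 0.33 (adjusted p = 0.116), both no longer called, while the effect of HFD in fasted p110α hep+/+ mice was -0.42 and was called (adjusted p = 0.0174). The second probe called that last effect too (-0.44 ± 0.13, adjusted p = 0.0211). Which transcripts each probe reads was not tested.

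**Figure D4:**
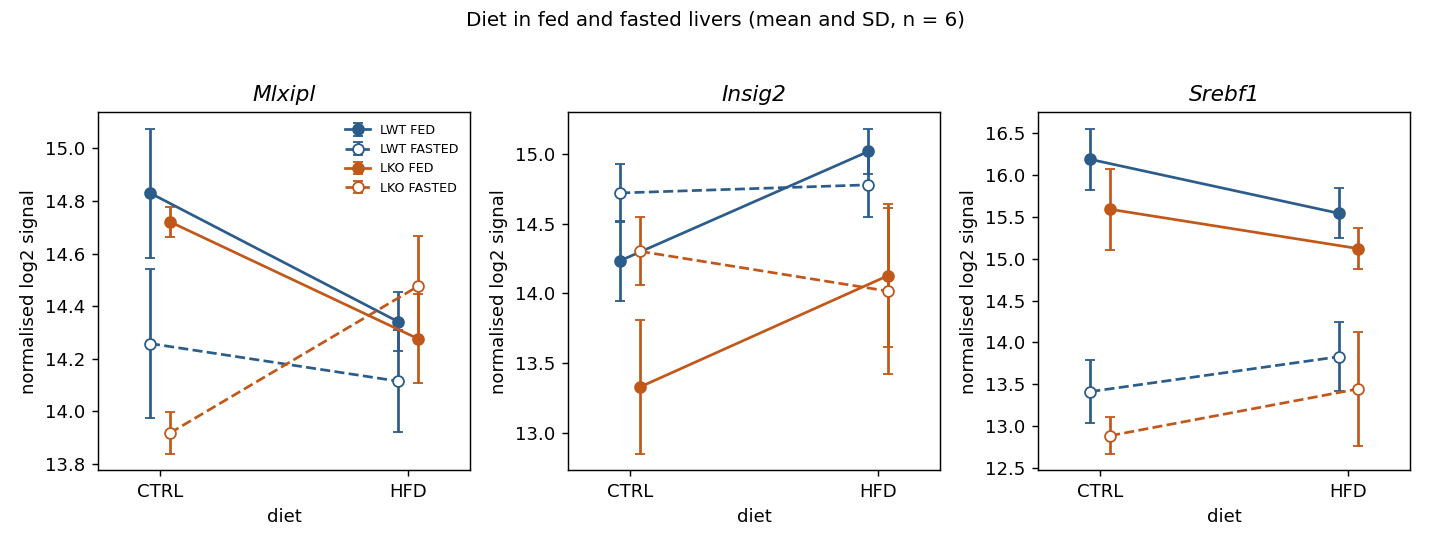
Mean normalised log2 signal with SD (vertical axis, n = 6) on CTRL and HFD (horizontal axis) for fed and fasted mice of both genotypes. The fasted p110α hep-/- line of Mlxipl goes from 13.92 on CTRL to 14.48 on HFD, while the other 3 Mlxipl lines go down.

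Mlx, the partner that ChREBP needs to bind DNA, was the most even of the 6, with group means within 1.57-fold. In fed mice it ran from 10.30 to 10.52 in p110α hep+/+ on CTRL, 10.01 to 10.37 in p110α hep+/+ on HFD, 10.06 to 10.47 in p110α hep-/- on CTRL and 9.95 to 10.22 in p110α hep-/- on HFD. In fasted mice the same groups ran from 9.70 to 9.86, 9.79 to 10.05, 9.63 to 9.95 and 9.57 to 9.89. Fasting lowered it in all 4 settings, with -0.62 ± 0.06 (1.53-fold, adjusted p = 9.66e-11), -0.27 ± 0.06 (adjusted p = 0.000307), -0.43 ± 0.06 (adjusted p = 3.45e-07) and -0.36 ± 0.07 (adjusted p = 6.96e-05), and the groups overlapped only in p110α hep+/+ mice on HFD. The fall was smaller on HFD in p110α hep+/+ mice, by 0.34 ± 0.08 (adjusted p = 0.0205; 0.17 and 0.50 within batches), a call that was lost without array weights (adjusted p = 0.0616) and without the filter on dim probes (adjusted p = 0.0673). HFD lowered Mlx in fed p110α hep+/+ mice (-0.21 ± 0.06, adjusted p = 0.00797). A genotype difference passed in fasted mice on HFD, with -0.17 ± 0.06 (adjusted p = 0.0364). In fed mice on CTRL it was -0.15 (adjusted p = 0.0729), which passed with slide as a fixed block (-0.15, adjusted p = 0.0493) and with normexp background correction (-0.16, adjusted p = 0.0484). The call in fasted mice on HFD was lost under 4 alternative settings, with -0.06 (adjusted p = 0.502) for the median over both Mlx probes, and without any of 5 arrays (fasted HFD, p110α hep-/- replicates 1, 2 and 6 and p110α hep+/+ replicates 3 and 4; adjusted p 0.0533 to 0.111). The second, dimmer Mlx probe called the fall on CTRL in both genotypes (-0.45 ± 0.09 and -0.23 ± 0.09) and the effect of HFD in fed p110α hep+/+ mice (-0.32 ± 0.09), and nothing else.

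Thrsp, the Spot 14 gene, was the member most affected by p110α. In fed mice on CTRL it ran from 16.94 to 17.64 in p110α hep+/+ (median 17.44) and from 15.49 to 16.72 in p110α hep-/- mice (median 16.47). In fasted mice on CTRL it ran from 13.78 to 15.52 in p110α hep+/+ (median 14.79) and from 12.40 to 13.70 in p110α hep-/- mice (median 13.10). On both occasions every p110α hep-/- liver lay below every p110α hep+/+ liver, with a difference of -1.097 ± 0.32 in the fed state (2.14-fold, adjusted p = 0.0112) and -1.69 ± 0.31 in the fasted state (3.22-fold, adjusted p = 5.42e-05). In fed mice on HFD it ran from 17.21 to 17.64 in p110α hep+/+ (median 17.43) and from 13.68 to 16.32 in p110α hep-/- mice (median 15.58). In fasted mice on HFD it ran from 15.22 to 16.31 in p110α hep+/+ (median 16.00) and from 12.03 to 14.93 in p110α hep-/- mice (median 13.13). The groups were apart here as well, by -1.86 ± 0.32 in the fed state (3.63-fold, adjusted p = 1.44e-05) and -2.79 ± 0.33 in the fasted state (6.94-fold, adjusted p = 1.11e-08). Within the washing batches the 8 values ran from -2.94 to -1.06. Thrsp was the only member called lower in p110α hep-/- mice in all 4 states, and its second probe gave the same 4 calls, with differences from -2.84 to -1.27.

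The genotype difference in Thrsp was not shown to depend on diet or fasting. The interaction of genotype and diet was -0.76 ± 0.45 in fed mice (adjusted p = 0.395) and -1.105 ± 0.45 in fasted mice (adjusted p = 0.146), and the latter passed only without replicate 3 of the fasted p110α hep-/- mice on HFD (-1.49, adjusted p = 0.0363). Thrsp varied more among p110α hep-/- mice on HFD (SD 0.91 fed and 1.099 fasted) than among p110α hep+/+ mice on HFD (0.18 and 0.44). The SD of 0.91 rested largely on replicate 3 at 13.68, with the other fed p110α hep-/- mice on HFD at 15.18 to 16.32. The difference in spread was not tested. Fasting lowered Thrsp in all 4 settings. In p110α hep+/+ mice the change was -2.70 ± 0.31 on CTRL (6.52-fold, adjusted p = 4.91e-09) and -1.46 ± 0.30 on HFD (2.76-fold, adjusted p = 0.000205), and in p110α hep-/- mice it was -3.30 ± 0.32 on CTRL (9.83-fold, adjusted p = 3.05e-11) and -2.40 ± 0.35 on HFD (5.27-fold, adjusted p = 1.16e-06). The fed and fasted groups overlapped only in p110α hep-/- mice on HFD. HFD raised it in fasted p110α hep+/+ mice by 1.28 ± 0.31 (2.43-fold, adjusted p = 0.00323; 0.76 and 1.53 within batches) and passed in no other setting. The test of its fall on HFD against CTRL gave 1.24 ± 0.43 in p110α hep+/+ mice (adjusted p = 0.123), and passed in a fit of those groups alone (adjusted p = 0.0375). Its group means spanned 21.5-fold, the widest of the 6, from fed p110α hep+/+ mice on HFD (17.43 ± 0.18, SD, n = 6) to fasted p110α hep-/- mice on CTRL (13.003 ± 0.48), and the mean of fed p110α hep+/+ mice on CTRL (17.37 ± 0.25) was not apart from the highest.

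Mid1ip1, the MIG12 gene, had the largest fall on fasting of the 6 genes in 3 of the 4 settings. In p110α hep+/+ mice on CTRL it ran from 12.71 to 14.35 fed (median 14.21) and from 9.96 to 10.65 fasted (median 10.25). On HFD it ran from 13.26 to 13.98 fed (median 13.52) and from 9.99 to 11.03 fasted (median 10.53). In p110α hep-/- mice on CTRL it ran from 12.66 to 14.16 fed (median 13.43) and from 9.54 to 11.01 fasted (median 9.88), with no overlap in these groups or in the next. On HFD it ran from 11.69 to 13.34 fed (median 12.59) and from 9.79 to 10.73 fasted (median 10.39). In p110α hep+/+ mice the change was -3.85 ± 0.23 on CTRL (14.4-fold, adjusted p = 2.09e-17) and -3.07 ± 0.22 on HFD (8.42-fold, adjusted p = 9.62e-15). Without p110α it was -3.44 ± 0.23 on CTRL (10.8-fold, adjusted p = 2.42e-15) and -2.20 ± 0.25 on HFD (4.59-fold, adjusted p = 1.21e-08). The fall in p110α hep-/- mice was smaller on HFD than on CTRL by 1.24 ± 0.34 (adjusted p = 0.0184; 0.96 and 1.301 within batches), a call that was lost without array weights (1.14, adjusted p = 0.0508) and without the fifth fed p110α hep-/- mouse on HFD (1.104, adjusted p = 0.0522).

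In fed mice, deletion of p110α lowered Mid1ip1 on both diets. The difference on HFD was -1.02 ± 0.23, which is 2.02-fold (adjusted p = 0.00077; -1.28 and -0.79 within batches). On CTRL it was -0.71 ± 0.23, which is 1.64-fold (adjusted p = 0.0251; -0.23 and -0.92 within batches). The call on CTRL was lost without array weights (-0.57, adjusted p = 0.129), without the filter on dim probes (-0.67, adjusted p = 0.0842), in a fit of those 2 groups alone (-0.71, adjusted p = 0.0626), and without any of 6 fed mice on CTRL, namely p110α hep-/- replicates 3, 5 and 6 and p110α hep+/+ replicates 1, 3 and 5 (adjusted p 0.0535 to 0.105). In fasted mice the difference was -0.31 ± 0.23 on CTRL (adjusted p = 0.356) and -0.14 ± 0.24 on HFD (adjusted p = 0.691). HFD lowered Mid1ip1 in fed p110α hep-/- mice 1.76-fold (-0.82 ± 0.24, adjusted p = 0.0217). This was lost in a fit of those 2 groups alone (adjusted p = 0.0767) and without replicate 1 on CTRL or replicate 4 or 5 on HFD (adjusted p 0.0787 to 0.0994). In fed p110α hep+/+ mice the effect of HFD was -0.52 ± 0.22 (adjusted p = 0.0897), and it passed without the second mouse on CTRL (-0.65, adjusted p = 0.0239). The 4 fasted group means, from 10.56 ± 0.35 to 10.06 ± 0.55 (SD, n = 6), did not differ beyond their spread, whereas the fed means ran from 12.54 ± 0.58 to 13.98 ± 0.62.

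The interactions can be read together. Of the 6 genes, none passed for genotype by diet in fed mice (limma; 3.02% of all genes; 0 of 6 at an unadjusted p below 0.05) and 1, Mlxipl, in fasted mice (5.09% of all genes; 3 of 6 at an unadjusted p below 0.05). None passed for genotype by fasting on CTRL (3.97% of all genes; 1 of 6 at an unadjusted p below 0.05) or on HFD (3.49%; 3 of 6). For diet by fasting, 2 passed in p110α hep+/+ mice, Srebf1 and Mlx (2.36% of all genes; 6 of 6 at an unadjusted p below 0.05), and 4 in p110α hep-/- mice, Srebf1, Mlxipl, Mid1ip1 and Insig2 (8%; 4 of 6). Whether the genotypes differ in this was not tested. For Srebf1 and Mid1ip1 in p110α hep-/- mice the fasted minus fed value was less negative on HFD. That of Mlxipl was -0.82 on CTRL and 0.23 on HFD, where it was not called, and that of Insig2 was lower on HFD. In all, 7 of 36 tests passed, 6 of them with a size above 1.5-fold, for which the share of all genes was not counted.

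Genes that act with these 6 were counted over lists by role. Of 12 SREBP processing and partner factors, Insig1, the relative of Insig2 that is itself a target of SREBPs, had the largest fall on fasting in each setting, with -1.59 ± 0.15 and -1.01 ± 0.15 in p110α hep+/+ mice on CTRL and HFD and -1.68 ± 0.16 and -0.72 ± 0.17 in p110α hep-/- mice (adjusted p 1.43e-11 to 0.00152). Mlxip, which encodes MondoA, the relative of ChREBP, had the largest rise in each, from 0.32 ± 0.09 to 0.59 ± 0.11 (adjusted p 1.28e-05 to 0.00614). On fasting 3, 3, 3 and 2 of the 12 rose and 2, 1, 2 and 2 fell in the same order, where 16%, 13.8%, 16.4% and 14% of all genes rose and 16.6%, 14.8%, 19.2% and 14.7% fell, with list medians of 0.03 to 0.09. Between genotypes 2, 2, 4 and 2 of the 12 were higher in p110α hep-/- mice (fed CTRL, fasted CTRL, fed HFD, fasted HFD), where 11%, 12.5%, 16.6% and 19.2% of all genes were higher, and 0, 0, 1 and 1 were lower, where 10.7%, 12.3%, 16.4% and 17.7% were lower. Nr1h2, which encodes LXRβ, was higher by 0.23 ± 0.05 in fed and 0.27 ± 0.05 in fasted mice on CTRL, the largest differences of the list there. Insig1 was lower in fed p110α hep-/- mice on HFD (-0.52 ± 0.16, adjusted p = 0.011), and HFD lowered it in fed p110α hep-/- mice (-0.99 ± 0.17, adjusted p = 4.4e-05). HFD raised none of the 12 and lowered 2 and 1 in fed and fasted p110α hep+/+ mice and 1 and 0 in p110α hep-/- mice, where 11.6%, 7.06%, 6.43% and 5.17% of all genes were lower.

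The enzymes that SREBP-1 is known to drive fell with fasting. Of 13, 13 fell in p110α hep+/+ mice on CTRL, 12 on HFD, 11 in p110α hep-/- mice on CTRL and 8 on HFD, and none rose, where 16.6%, 14.8%, 19.2% and 14.7% of all genes fell, with list medians of -1.91, -1.51, -1.31 and -0.71. The largest fall was that of Pnpla3, a lipid droplet lipase, in p110α hep+/+ mice on CTRL (-4.65 ± 0.31), of Fasn, fatty acid synthase, in p110α hep+/+ mice on HFD (-4.14 ± 0.18) and p110α hep-/- mice on CTRL (-3.73 ± 0.19), and of the elongase gene Elovl6 in p110α hep-/- mice on HFD (-2.56 ± 0.21). Between genotypes 10 were lower in fed p110α hep-/- mice on CTRL and 13 on HFD (10.7% and 16.4% of all genes), with list medians of -0.84 and -1.73. In fasted mice 4 were lower (12.3% of all genes) and 1, Elovl6, was higher on CTRL (0.79 ± 0.18, adjusted p = 0.00124), and 7 were lower on HFD (17.7%), led by Scd1, the stearoyl-CoA desaturase (-3.03 ± 0.25, adjusted p = 2.08e-12). Srebf1 itself differed between the genotypes on HFD by -0.43 and -0.37, values that did not pass. HFD lowered 9 of the 13 in fed and 6 in fasted p110α hep-/- mice, and 1 and 0 in p110α hep+/+ mice, where 6.43%, 5.17%, 11.6% and 7.06% of all genes were lower. It raised 0 and 1 in p110α hep-/- mice and 2 and 1 in p110α hep+/+ mice, where 5.91%, 5.67%, 12.4% and 8.99% were higher. For genotype by fasting, 7 of the 13 passed on each diet, all above 0 (3.97% of all genes on CTRL and 3.49% on HFD). For genotype by diet, 8 passed in fed mice, all below 0 (3.02%), and 7 in fasted mice, 6 of them below 0 (5.09%). Of the 6 regulators none passed in the first 3 of these tests, and Mlxipl passed in the last, above 0.

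ChREBP targets moved both ways. Of 9, 2 rose and 3 fell on fasting in p110α hep+/+ mice on CTRL, 0 and 5 on HFD, 3 and 3 in p110α hep-/- mice on CTRL, and 3 and 5 on HFD, where 16% and 16.6%, 13.8% and 14.8%, 16.4% and 19.2%, and 14% and 14.7% of all genes rose and fell. Pklr, liver pyruvate kinase, had the largest fall in each setting, from -2.15 ± 0.21 to -1.58 ± 0.21 (adjusted p 1.65e-10 to 7.82e-07). Fgf21, a fasting hepatokine, had the largest rise on CTRL, with 1.91 ± 0.23 in p110α hep+/+ mice and 3.43 ± 0.24 without p110α, and the G protein regulator Rgs16 on HFD in p110α hep-/- mice, by 2.44 ± 0.48 (adjusted p = 0.000117). Between genotypes 1 was higher and 3 lower in fed mice on CTRL, 4 and 2 in fasted mice on CTRL, 0 and 6 in fed mice on HFD, and 3 and 3 in fasted mice on HFD, to be read against 11% and 10.7%, 12.5% and 12.3%, 16.6% and 16.4%, and 19.2% and 17.7% of all genes. Txnip, the thioredoxin-binding protein, was higher in fasted p110α hep-/- mice on CTRL by 1.06 ± 0.17 (adjusted p = 7.3e-06). There the brightest and the second Mlxipl probe were lower and the third was higher. HFD raised 6 and lowered none in fed p110α hep+/+ mice (12.4% and 11.6% of all genes), raised none and lowered 3 in fasted ones (8.99% and 7.06%), raised 1 and lowered 1 in fed p110α hep-/- mice (5.91% and 6.43%) and raised none and lowered 6 in fasted ones (5.67% and 5.17%).

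Mice of the same group were also compared with each other. After the group means were removed, all 15 pairs of the 6 genes were correlated over the 48 mice, with permutation of the mice within groups, and 7 pairs passed an adjusted p of 0.05 over the 15. Srebf1 went with Mid1ip1 (Pearson's r = 0.54, permutation p = 0.00013, adjusted p = 0.0015; Spearman's rho = 0.54, p = 0.00035) and kept r = 0.51 without the 2 mice farthest from the Srebf1 median, 0.58 and 0.38 within the washing batches and 0.61 with slide means removed. Srebf1 also went with Thrsp (r = 0.52, permutation p = 0.00172, adjusted p = 0.0086; rho = 0.63, p = 1e-05, the smallest the permutations can give), with 0.52 without those 2 mice, 0.47 and 0.59 within batches and 0.51 with slide means removed. Mlxipl and Mlx went in opposite directions (r = -0.47, permutation p = 2e-04, adjusted p = 0.0015; rho = -0.49, p = 0.00078), with -0.47 without 2 mice, -0.33 and -0.51 within batches and -0.43 with slide means removed. In fed and in fasted mice taken apart, r of these 3 pairs was 0.69 and 0.43, 0.42 and 0.58, and -0.58 and -0.38.

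The other 4 pairs that passed were less firm. They were Srebf1 and Mlxipl (r = -0.41, permutation p = 0.00902, adjusted p = 0.0338; rho = -0.44, p = 0.00441), Srebf1 and Insig2 (r = -0.42, permutation p = 0.0195, adjusted p = 0.0417; rho = -0.27, p = 0.0958), Mlx and Thrsp (r = 0.36, permutation p = 0.0169, adjusted p = 0.0417; rho = 0.40, p = 0.00687) and Thrsp and Mid1ip1 (r = 0.36, permutation p = 0.0172, adjusted p = 0.0417; rho = 0.36, p = 0.0204). Without the 2 farthest mice their r was -0.40, -0.24, 0.29 and 0.37, so the relation of Srebf1 and Insig2 rested in part on those mice. Within batches the values were -0.69 and -0.44, -0.67 and -0.27, 0.25 and 0.60, and 0.51 and 0.38. In fed and in fasted mice they were -0.41 and -0.41, -0.10 and -0.70, 0.40 and 0.36, and 0.50 and 0.25, with r of Srebf1 and Insig2 near 0 in fed mice. These differences between fed and fasted mice were not tested. With slide means removed they were -0.26, -0.34, 0.25 and 0.40, and the first 3 lost their call with slide as a block (adjusted p = 0.239, 0.0849 and 0.239). Thrsp and Mid1ip1 lost it with the processed signal (adjusted p = 0.057) and with the replicate block (0.0514), as did Srebf1 and Insig2 (0.0595 and 0.0514). Srebf1 and Mlxipl also lost it with the median over the probes (r = -0.29, adjusted p = 0.145) and without washing batch correction (0.0656). The number of pairs that passed fell to 3 or 4 when any 1 of 9 mice was left out, among them 4 fed p110α hep-/- mice on CTRL (replicates 1, 2, 5 and 6), the second fed p110α hep+/+ mouse on CTRL and the second on HFD, the sixth fasted p110α hep+/+ mouse on CTRL and the sixth on HFD, and the first fasted p110α hep-/- mouse on HFD. As a background, r of Srebf1 with the other 20486 genes lay between -0.44 and 0.42 from the 5th to the 95th percentile, r of Thrsp between -0.41 and 0.41, r of Mlxipl between -0.39 and 0.41, r of Mlx between -0.35 and 0.33, r of Mid1ip1 between -0.38 and 0.37 and r of Insig2 between -0.36 and 0.37. The 4 less firm pairs each lay within the range of at least 1 of their genes.

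**Figure D5:**
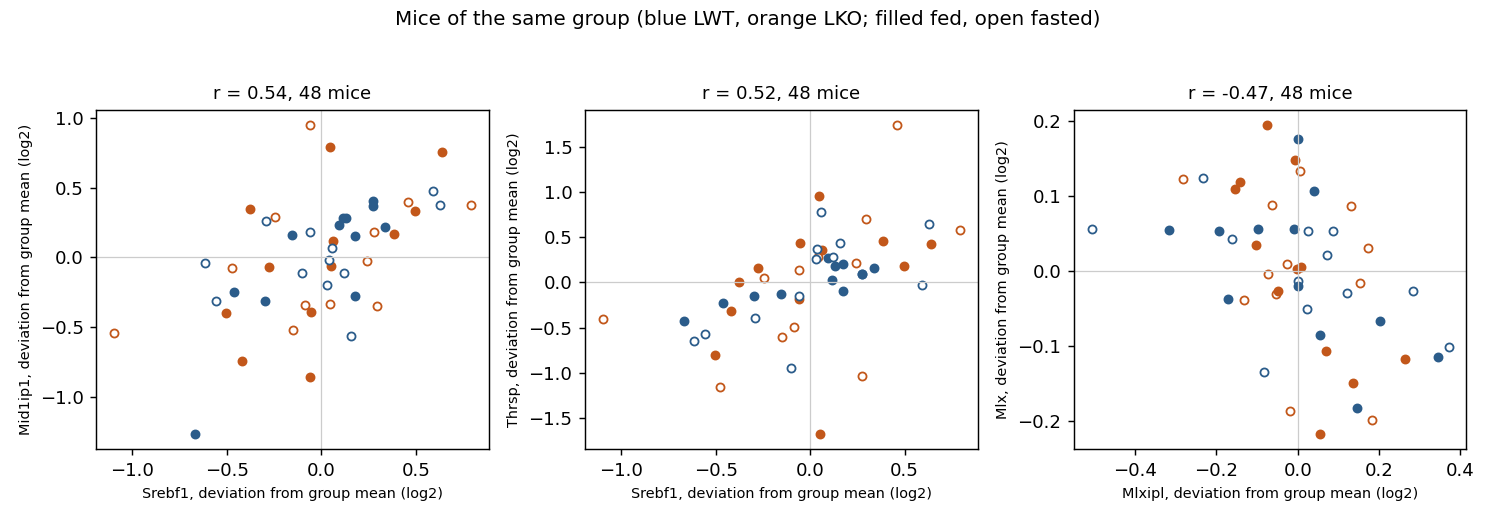
Deviation from the group mean (log2) of 1 gene against another, each point a mouse (48 mice), with p110α hep+/+ in blue, p110α hep-/- in orange, fed filled and fasted open. The Srebf1 plots with Mid1ip1 (r = 0.54) and Thrsp (r = 0.52) rise, and the plot of Mlxipl and Mlx falls (r = -0.47).

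The order of the 8 groups was shared by some of these genes. Over the 8 group means Srebf1 had r of 0.99 with Mid1ip1, 0.97 with Mlx, 0.88 with Thrsp, 0.75 with Mlxipl and -0.22 with Insig2, values that share the same 48 livers and are given as a description. Among 7265 genes whose group means spanned at least 0.5, the 3 closest to Srebf1 were Traf5 (r = 0.998), E130309D02Rik (0.991) and Mid1ip1 (0.988). For Mid1ip1 they were Anks4b (0.992), 2310022B05Rik (0.992) and AK078917 (0.989), and for Thrsp they were Cyb5b (0.995), Lcmt1 (0.990) and Nhej1 (0.985). Mlx was closest to Wdr6 (0.981), Ankrd9 (0.981) and Insig1 (0.974). Among the genes close to Insig2 were Reep6 (0.983) and the peroxisomal protease gene Lonp2 (0.980). The closest genes to Mlxipl were Gm9924 (0.966), Zfp930 (0.953) and Rab3a (0.922).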

How the data were processed

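Liver RNA of 48 mice was hybridised to 48 one-colour Agilent arrays, 8 per slide on 6 slides, each slide holding 1 array of every group, and 3 slides per washing batch. The deposited scanner files hold intensity values per spot (Agilent Feature Extraction 10.10.1.1, per the submitters' processing notes). The authors filtered the median signals, took log2, corrected the washing batch, applied quantile normalization and used limma. Their deposited log2 table was used here as an alternative. Here, log2 median signal was taken, outlier spots were left out, spots of a probe were averaged, and 30794 of 56605 probes that were well above background on at least 5 of 6 arrays of a group were kept (20487 genes). The washing batch was removed with the group means protected, followed by quantile normalization, array weights and limma (limma 3.58.1, R 4.3.3, statmod 1.5.0), with Benjamini-Hochberg adjustment over all probes kept. The script was tested on simulated data. Replicates are separate mice, and their number limits the precision. The genes were read from their brightest probe. Members and lists were chosen with earlier results of these data known. The named genes were the 6 members, the 3 genes per member with the most similar 8 group means (1 of which is not reported here), Pik3ca, and the genes with the largest and smallest change of each list. Pairs were tested with 100000 permutations. Alternatives covered signal, background, scaling, filter, batch, slide, replicate number, weights, threshold, probe summary, samples in the fit and each array left out.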

Additional observations from a re-analysis of the deposited data

Results flagged for a closer look

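In 3 of the 48 sets of 6 values (6 genes in 8 groups) the highest or lowest mouse had a gap to its nearest neighbour, relative to the range of the group, above Dixon's 95% critical value. Chance gives about 1 in 20. The second fed p110α hep+/+ mouse on CTRL had Mid1ip1 at 12.71, with the next at 14.14. The sixth fasted p110α hep-/- mouse on CTRL had Mlxipl at 14.07, with the next at 13.92. The first fasted p110α hep+/+ mouse on HFD had Insig2 at 14.33, with the next at 14.76.

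The effect of 1 condition differed between groups in 7 tests. The response to fasting differed between diets for Srebf1 in p110α hep+/+ mice (1.12) and in p110α hep-/- mice (0.95), for Mlx in p110α hep+/+ mice (0.34), and for Mlxipl (1.05), Mid1ip1 (1.24) and Insig2 (-1.18) in p110α hep-/- mice. The genotype difference in fasted mice differed between diets for Mlxipl (0.74).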

How the results depend on the processing

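No called change or pair of genes changed sign under the alternative settings (13 for changes, 9 for pairs), while some of those near 0 that had not passed did. Of 48 called changes of single genes, 38 were called with the same sign in every alternative setting, and of 60 not called, 12 passed in at least 1. Tests of interactions that passed numbered 7, and 4 without the filter on dim probes and 4 without array weights. Pairs of genes numbered 7, and 4 with slide as a fixed block. Calls between diets numbered 9, and 5 with a fold change above 1.5 as well. The causes were not tested. Leaving out 1 array at a time gave 11 to 14 calls between genotypes, 8 to 10 between diets, 19 to 20 between nutritional states, 5 to 8 for interactions and 3 to 8 pairs, and 7 called changes were lost without some array. The labels' replicate numbers were not found to pair the mice, since 168 comparisons of arrays with the same number had a median correlation of deviations of 0.01 (-0.34 to 0.32). With the replicate block the counts were 14 between genotypes, 10 between diets, 19 between nutritional states, 8 for interactions and 5 pairs (Srebf1 with Insig2 and Thrsp with Mid1ip1 at adjusted p = 0.0514), and Srebf1 passed in 2 more tests and Mlxipl in 1. The median log2 fold change over all genes was at most 0.06 in size in any comparison under the settings where it was computed. It was not computed for the median over the probes or for fits of the compared groups alone. Signal limits none of the 6 genes, whose probes were well above background on all arrays.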
